A study of Pinus pinaster with 12 samples.

Results

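The baseline N6-methyladenosine (m6A) landscape of maritime pine (Pinus pinaster) roots was read from the 6 libraries of water-treated seedlings, out of 12 libraries in the series. The members were chosen by the labels: 3 libraries of RNA precipitated with an antibody against m6A (IP) and 3 libraries of fragmented RNA that was not precipitated (input), all from water-treated roots, with all 253670 transcript IDs of the count table and the 6637 peaks listed by the authors for water. Both groups came from roots of seedlings aged 1 month, of the Segura-Alcaraz provenance, taken 24 h after irrigation with 80 mL of water. The other 6 libraries, which serve below only as separate libraries of the same kind, are IP and input of roots irrigated with 80 mL of 3 mM NH4Cl. The experiment was run 3 times per the labels, and whether IP and input of 1 number came from the same RNA is not stated. Whole roots were used, so fewer cells of a type and less RNA per cell cannot be told apart.

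m6A is a methyl group added to adenosines inside messenger RNA by a nuclear methyltransferase complex, the writer, in which the catalytic subunit is known as MTA in Arabidopsis. Demethylases of the ALKBH family remove it and proteins with a YTH domain bind it, and in Arabidopsis the mark bears on mRNA stability and on the development of roots and shoots. In IP sequencing the mark is read by enrichment: fragments that carry it are pulled down, so a transcript or a stretch of it holds a larger share of the IP reads than of the input reads. The files pair no transcript ID with a gene name or a sequence, so writers, erasers, readers and root markers could not be looked up, and transcripts are given by ID only.

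The 6 libraries held 57945305 to 63522543 counts in the IP and 69030249 to 81534388 counts in the input. Among the water IP libraries, replicate 1 was the closest to the inputs. Across 127525 transcripts its log2 levels (CPM, counts per 1000000 reads of the library, plus 0.1) had a mean Pearson r of 0.621 with the inputs, against 0.379 and 0.503 for IP replicates 2 and 3, and transcripts are not independent replicates. With the other IP libraries the mean r was 0.913, 0.920 and 0.939 for IP replicates 1, 2 and 3. Results that moved by over 1.5 times or lost a call without IP replicate 1 are given with both values.

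IP reads were concentrated on fewer transcripts than input reads. The 1000 transcripts with most reads in a library held 30.3%, 33.1% and 34.1% of the reads in IP replicates 1, 2 and 3, against 24.4%, 25.3% and 24.0% in input replicates 1, 2 and 3. All 3 IP libraries lay above all 3 inputs. A share of 50% of the reads was reached with 3146, 2599 and 2443 transcripts in the IP libraries, against 4706, 4477 and 4792 in the inputs, again without overlap. For both differences an exact permutation test (two-sided) gave p = 0.1, which no split of 3 and 3 libraries can go below. The adjusted p was 0.143 over the 10 library measures tested (Benjamini-Hochberg). These 10 include the read shares on listed-peak transcripts, which were listed from the same libraries. The adjusted p is therefore lower than it would be without them. The number of transcripts with at least 1 read did not separate the groups: it was 174178, 167651 and 144488 in the IP and 169359, 162946 and 168842 in the input (p = 0.8, exact permutation test). The mean difference, IP minus input, was -4943 transcripts, and -10979.5 without IP replicate 1. Brought to the depth of the smallest library, these differences were -2402 and -8326.5. At equal depth, that of the smallest library, the expected numbers were 173808, 167579 and 144488 in the IP and 165703, 160286 and 167091 in the input (p = 1, exact permutation test).

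Transcripts were then compared one by one between IP and input with edgeR's quasi-likelihood test, which took the 127525 transcripts with enough reads, and a transcript was called at a Benjamini-Hochberg adjusted p under 0.05. Of these, 35.9% were called higher in the IP and 32.4% lower, and the median log2 IP/input over all tested transcripts was -0.30. This median was -0.80 when libraries were scaled by their totals alone, so a class of transcripts is read here against the others and not against 0. Most transcripts were called in 1 direction or the other, so the counts below are read against these shares.

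Of the 5968 transcripts with a listed water peak, 5958 were tested. Among them 4486 (75.3%) were higher in the IP and 376 (6.31%) lower, where 35.9% and 32.4% of all transcripts were. The count of lower ones was 755 when libraries were scaled by their totals alone and 239 at an adjusted p under 0.01. Their median log2 IP/input was 2.02 (SD of the medians of the 3 IP libraries 0.20), against -0.47 (SD 0.35) for the 121567 tested transcripts without a peak. The peaks were called on the same libraries, so these counts describe the list and do not test it. The list is 1 for all water libraries, so a peak's position, width and fold have no replicates, and the fold is the authors' own value. The median of transcripts without a peak was -0.87 when IP replicate 1 was left out, and -0.21, -0.25 and -0.21 when input replicate 1, 2 or 3 was.

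The same water list was read in the ammonium-treated roots, whose libraries had no part in calling it. Of its transcripts, 5943 were tested there, and 4764 (80.2%) were higher in the IP and 587 (9.88%) lower with edgeR. Over all 123957 transcripts tested in the ammonium roots, 37.9% were higher and 48.5% lower. The median log2 IP/input of the listed transcripts was 2.11 in the ammonium roots, against a median of -0.74 for all transcripts there.

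The 2 peak transcripts with the smallest p in each direction whose libraries did not overlap show the size of the contrast. The transcript pp_81130 had 1152, 999.6 and 1026 CPM in the water IP libraries, against 66.7, 61.2 and 61.9 CPM in the inputs. Its log2 IP/input was 4.60 (SE 0.13, adjusted p = 1.36e-05, edgeR). Its single peak lay near the start of the transcript, at positions 51 to 301, with an authors' fold of 137. In the ammonium roots it had 1266, 914 and 1157 CPM in the IP and 72.4, 65.6 and 62.3 CPM in the input, and the peak had the same first and last base there.

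A second one, pp_114542, had 429.8, 394.2 and 409.3 CPM in the water IP and 18.6, 19.2 and 19.4 CPM in the water input. The log2 IP/input was 4.97 (SE 0.14, adjusted p = 1.36e-05, edgeR), with 1 peak of 492 bases at positions 99 to 590 and an authors' fold of 66.6. In both transcripts each IP library lay above each input library by over 10-fold.

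Peak transcripts that were lower in the IP are the opposite case, and both examples carry a listed peak far from the transcript start. The transcript pp_194247 had 18.6, 10.4 and 22.2 CPM in the water IP, against 631.8, 702.1 and 576.1 CPM in the input. Its log2 IP/input was -4.69 (SE 0.31, adjusted p = 5.14e-05, edgeR), and its single peak of 101 bases lay at positions 1297 to 1397 with an authors' fold of 6.75. For pp_109838 the levels were 15.1, 10.7 and 14.8 CPM in the IP and 132.6, 116.8 and 142.9 CPM in the input. This gave a log2 IP/input of -2.74 (SE 0.19, adjusted p = 5.38e-05, edgeR), with 1 peak of 199 bases at positions 5860 to 6058 and an authors' fold of 15.3. A count covers the whole transcript whereas a peak is a local excess, so a transcript can lose reads in the IP as a whole and still hold a stretch where IP exceeds input. The change of the ratio between water and ammonium roots did not pass for any of the 4 (adjusted p from 0.556 to 0.665, edgeR interaction over all 12 libraries).

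Most transcripts with a listed peak carried 1. In the water list 5396 transcripts (90.4%) had 1 peak, 503 (8.43%) had 2, 51 had 3, 12 had 4, 4 had 5, 1 had 6 and 1 had 8. The 572 transcripts with 2 or more peaks held 1241 peaks, or 18.7% of the list. With 1 peak the median log2 IP/input stood at 2.01, with 2 peaks at 2.02 and with 3 or more at 3.24, against -0.47 with no peak. The SDs of the medians of the 3 IP libraries were 0.20, 0.20, 0.30 and 0.35 in the same order. The medians for 1 and 2 peaks lay within this spread between libraries, and that for 3 or more lay above both by several SDs. These SDs do not measure the spread between transcripts. The 69 with 3 or more peaks had quartiles of 1.31 and 6.44, against 0.70 and 4.01 for 1 peak. Input level was not held, at a median of 8.52, 10.4 and 5.56 CPM for 1, 2 and 3 or more peaks. In the ammonium libraries the median log2 IP/input was 2.10, 2.03 and 3.08 for 1, 2 and 3 or more peaks. The share called higher in the water IP was 74.7% (4025 of 5386), 79.7% (401 of 503) and 87.0% (60 of 69) for 1, 2 and 3 or more peaks, and the share called lower was 6.67%, 3.18% and 1.45%, again beside the 35.9% and 32.4% of all transcripts.

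**Figure D1:**
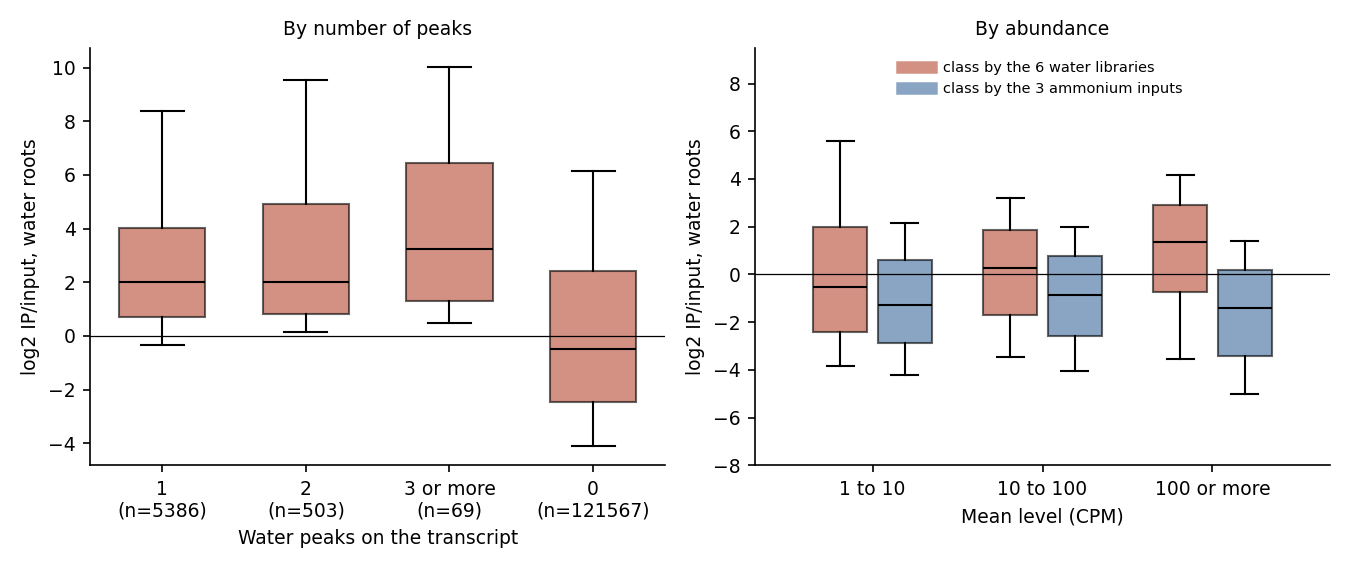
Log2 IP/input of water roots, from edgeR, by number of listed water peaks on the transcript (left) and by mean level in CPM (right); boxes run between the quartiles of the transcripts with the median as a line, and whiskers reach the 10% and 90% points. The medians are 2.01, 2.02 and 3.24 for 1, 2 and 3 or more peaks against -0.47 for none, and for transcripts at 100 CPM or more the median is 1.37 or -1.42 according to which libraries set the class.

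The share of reads on peak transcripts was measured library by library. Transcripts with any water peak took 28.2%, 31.5% and 31.3% of the reads in IP replicates 1, 2 and 3, against 14.2%, 14.8% and 14.0% in the inputs. The groups did not overlap. The mean was 30.3% ± 1.84 in the IP and 14.3% ± 0.379 in the input (SD, n = 3 each), a difference of 16.0 percentage points. These transcripts were listed for an excess of IP in the same 6 libraries, so this difference is a description and no test is given for it. In the ammonium libraries, which had no part in the list, the same transcripts took 33.0%, 32.4% and 32.6% of the IP reads and 14.6%, 14.5% and 14.4% of the input reads (p = 0.1 by exact permutation, adjusted p = 0.1 over 5 measures).

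By number of peaks, the ratio of IP to input share was 2.12 for transcripts with 1 peak, 1.90 for 2 peaks and 3.92 for 3 or more. Transcripts with 3 or more peaks took 0.366%, 0.635% and 0.355% of the reads in IP replicates 1, 2 and 3, against 0.114%, 0.110% and 0.123% in the inputs. Replicate 2 of the IP was high in this class, and 27.7% of its reads there belonged to 1 transcript. That transcript, pp_202250, had 609.4, 1757 and 490.0 CPM in the IP and 40.2, 34.5 and 53.2 CPM in the input, and was picked out after its values were seen. In the ammonium libraries, which had no part in the list, the ratio of shares was 2.28, 1.92 and 3.02 for 1, 2 and 3 or more peaks.

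**Figure D2:**
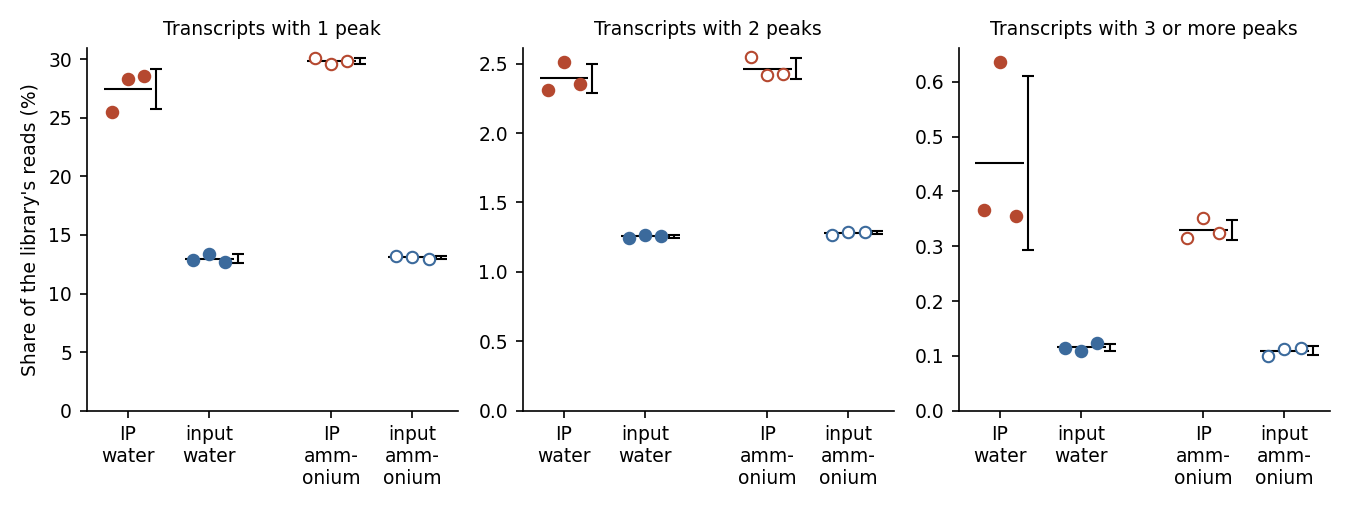
Share of each library's reads, in percent, on transcripts with 1, 2 or 3 or more listed water peaks; each point is a library, filled for water and empty for ammonium, with the mean as a line and the SD of 3 libraries as a bar beside it. In every panel the 3 water IP libraries lie above the 3 water inputs, and replicate 2 of the water IP stands at 0.635% in the class of 3 or more peaks.

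Peaks on transcripts with several of them had lower folds one by one. The median authors' fold was 13.3 for the only peak of a transcript, 7.57 where there were 2 and 6.67 where there were 3 or more. The strongest peak of each transcript, however, had a median fold of 13.3, 15.3 and 13.1 in these classes, where taking the highest of several peaks favours transcripts with more of them. The summed width per transcript had a median of 197, 350 and 602 bases. Peaks of 1 transcript lay close together: over 669 gaps between neighbouring peaks the median was 148 bases, the shortest 90 and the longest 6407, and 63 gaps were over 500 bases. In 342 of the 572 transcripts all peaks carried the same listed p, so the p is not a separate measurement for each peak.

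The transcript with most peaks was pp_145535, with 8 peaks from position 51 to 4467. Their authors' folds were 1.67 to 7.88. Its levels were 47.7, 16.0 and 48.9 CPM in the water IP and 12.1, 9.15 and 14.6 CPM in the input, a log2 IP/input of 2.18 (adjusted p = 0.00307, edgeR). All 3 IP libraries lay above the 3 inputs, replicate 2 by the least. None of its peaks was listed for ammonium.

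Whether a transcript had a listed peak depended on its abundance. Classes were set by mean CPM, which is not divided by transcript length because the files give no lengths, so long transcripts stand in higher classes than their number of molecules would put them. Over the 6 water libraries, a peak was listed for 0 of 110151 transcripts under 0.1 CPM, of which 286 had enough reads to be tested. A peak needs reads, so this share of 0 cannot tell whether these transcripts carry m6A. The share was 0.783% (617 of 78826) at 0.1 to 1 CPM, 4.39% at 1 to 10, 15.8% at 10 to 100 and 35.3% (530 of 1503, 95% Wilson interval 32.9 to 37.7, counting error only) at 100 CPM or more. With classes set by the ammonium inputs, which enter neither the peaks nor the contrast, the share was 0.794%, 1.13%, 3.54%, 13.2% and 19.9% (18.0 to 22.1) from the lowest to the highest class. On both scales the share was higher in each class than in the class below it, and the first scale includes the IP reads while the second does not.

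**Figure D3:**
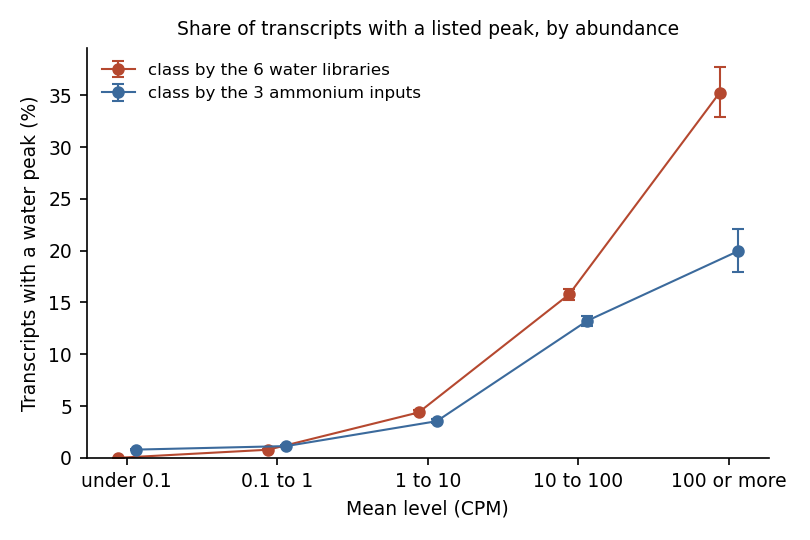
Share of transcripts with a listed water peak, in percent, by mean level in CPM, with classes set by the 6 water libraries or by the 3 ammonium inputs; bars give the 95% Wilson interval, for counting error alone. The share climbs with the level on both scales, to 35.3% and 19.9% at 100 CPM or more.

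The number of peaks per transcript had no steady order along abundance. Among transcripts with a peak, 2 or more peaks were listed for 10.6%, 9.54%, 8.06%, 10.1% and 9.25% from the lowest to the highest class of the ammonium inputs. On the scale of the 6 water libraries the share was 2.92% at 0.1 to 1 CPM and 10.1%, 10.7% and 9.25% in the classes above.

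The IP/input ratio of abundant transcripts depended on which libraries set the class. Among transcripts at 100 CPM or more over the 6 water libraries the median log2 IP/input was 1.37, with 62.2% of 1503 higher in the IP and 25.9% lower, beside 35.9% and 32.4% overall. Among the 1464 transcripts at 100 CPM or more in the ammonium inputs it was -1.42, with 20.3% higher and 63.2% lower. The first class admits a transcript through a high IP level. The second admits it through a high input level, and input is the denominator of the ratio. Its median level was 148.7 CPM in the water input and 42.4 CPM in the water IP. Neither median is thus free of how the class was set. In the classes of 1 to 10 and 10 to 100 CPM of the ammonium inputs the median was -1.28 and -0.87, where 40940 of 41032 and all 18912 transcripts passed the count filter. At 0.1 to 1 CPM, 43213 of 57324 transcripts passed the filter, 3023 of them with 0 reads in the water IP. Their median was -0.87, with 22.7% higher and 28.9% lower. Under 0.1 CPM only 22996 of 134938 passed. Of these, 6467 had 0 reads in the water inputs and so passed through their IP reads, and this class is not read this way.

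Transcripts with a peak had a higher median ratio than the others in each of these classes. The peaks were called on the same water libraries, so this describes the list within each class and does not test it. By the ammonium inputs, the median log2 IP/input was 1.86 for peak transcripts and -1.39 for the rest at 1 to 10 CPM, 1.06 and -1.26 at 10 to 100 CPM, and 0.67 and -2.09 at 100 CPM or more. The share of peak transcripts called lower in the IP was 2.62%, 10.9% and 21.9% in these classes, against 44.4%, 50.2% and 63.2% of all transcripts of the same classes. The share called lower was thus larger in each class than in the class below it for both. The classes were set by input level, which is also the denominator of the ratio, and neither trend was tested.

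Peak widths came in steps. Widths ran from 90 to 4178 bases with a median of 196, and 78.6% of the 6637 peaks were within 5 bases of a multiple of 50 bases. The narrowest step, up to 101 bases, held 1710 peaks, while 321 peaks were wider than 500 bases and 12 wider than 1000. The widest, of 4178 bases, ran from position 1891 to 6068 of pp_206359 with an authors' fold of 17.7. This transcript had 40.5, 148.6 and 52.9 CPM in the water IP and 8.83, 6.83 and 11.5 CPM in the input, and in the ammonium list it had 6 peaks instead. One of the narrowest peaks, of 90 bases, lay at positions 46 to 135 of pp_74323 with a fold of 8. Its levels were 1.89, 0.935 and 1.07 CPM in the water IP, against 0.0736, 0.0530 and 0.0579 CPM in the input.

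Wide peaks were strong peaks on well-read transcripts. In 4 width classes of about equal size (90 to 101, 135 to 196, 197 to 298 and 299 to 4178 bases) the median authors' fold was 5.50, 8, 17.4 and 35. The median input level of the transcripts was 1.90, 2.45, 12 and 21.8 CPM in the same order. Across the 6637 peaks width had a Spearman rho of 0.573 with fold and 0.416 with input level, a description over peaks that share libraries and the depth of their transcript.

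Over all abundances the 2 classes of narrower peaks had higher median ratios than the 2 of wider peaks, but within 1 range of abundance the median ratio was higher with each step in width. For transcripts with a single peak its median was 2.34, 2.70, 1.61 and 1.90 from the narrowest to the widest class. Of these, 162, 170, 63 and 19 had 0 reads in the water inputs and passed the count filter only through their IP reads. Among single-peak transcripts at 10 to 100 CPM in the ammonium inputs the median ratio was -0.15 (n = 298), 0.48 (n = 389), 0.89 (n = 609) and 1.63 (n = 954 transcripts). The median input levels were then alike, at 24.5 to 27.8 CPM. The SDs of the medians of the 3 IP libraries were 0.089, 0.13, 0.17 and 0.23, and each IP library gave the same order. Scaling by library totals gave -0.69, -0.062, 0.36 and 1.09, so the sign of the second class, but not the order, depends on the scaling. Of the narrowest class 32.2% were called higher and 33.2% lower, and of the widest 81.8% were higher and 3.14% lower. Over all 18912 transcripts of that abundance 28.2% were higher and 50.2% lower. In the ammonium libraries, which did not define these peaks, the medians were -0.099, 0.50, 0.97 and 1.76 for the transcripts at 10 to 100 CPM in the water inputs.

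**Figure D4:**
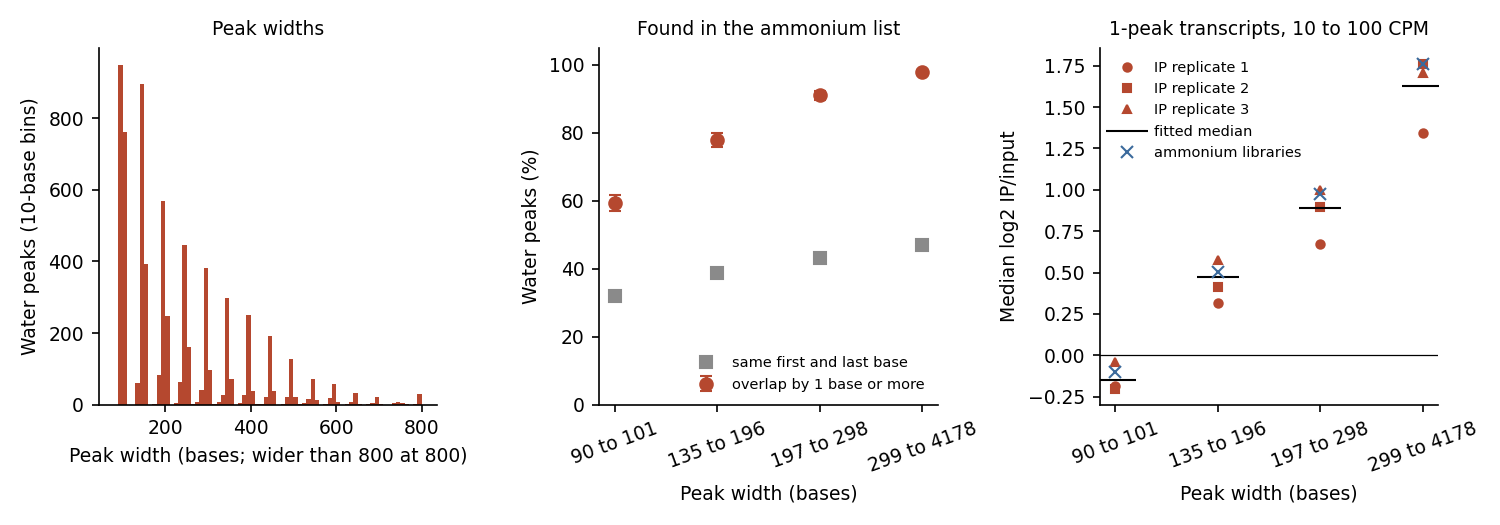
Width of the water peaks: the number of peaks in bins of 10 bases (left), the share found in the ammonium list, as circles for an overlap with 95% Wilson intervals and as squares for the same first and last base (middle), and the median log2 IP/input of transcripts with 1 peak at 10 to 100 CPM (right), where filled symbols are the 3 water IP libraries, lines the fitted median and crosses the ammonium libraries. The share overlapped goes up with width, to 97.9%, and the fitted medians go up with width, to 1.63, in each of the 3 IP libraries and in the ammonium libraries.

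Wide peaks also recurred more often in the list made from the ammonium libraries. Of the water peaks 59.4% (95% Wilson interval 57.1 to 61.7), 77.9%, 91.0% and 97.9% (97.1 to 98.5) overlapped an ammonium peak by at least 1 base, from the narrowest to the widest class. On transcripts at 10 to 100 CPM in the ammonium inputs these shares were 69.0%, 86.0%, 94.9% and 99.1%. A wider peak meets an overlap of 1 base more easily, and the part of this was not tested. Of the peaks that recurred, 49.4% had the same first and last base in both lists. By width class these were 548 of 1016, 646 of 1300, 694 of 1459 and 776 of 1621, a share that was not higher for wider peaks. Peaks that did not recur had a median width of 101 bases and a median fold of 4.37, against 200 bases and 15.7 for those that did. They lay on transcripts with a median input level of 0.473 CPM, against 11.3 CPM for those that did. The part of depth in this was not tested. By number of peaks, 82.4% of single peaks, 78.6% of peaks on transcripts with 2 and 67.2% of peaks on transcripts with 3 or more recurred.

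The first base of a peak had a median of 400, counted from 1 at the start of the ID, and 475 peaks (7.16%) began within the first 50 bases, the earliest at 45. There were 1743 peaks (26.3%) that began after base 1000. The peak that ended farthest from the start lay at positions 11292 to 11491 of pp_100243 with an authors' fold of 131. That transcript had 95.1, 55.2 and 61.2 CPM in the water IP and 326.1, 293.9 and 370.6 CPM in the input, so all IP libraries lay below the inputs (log2 IP/input -1.71, adjusted p = 0.000317, edgeR) while the peak had the same ends in the ammonium list. Transcript lengths and reading frames are not in the files, so a position could not be turned into a share of the transcript or set against a coding region.

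The highest folds by position were far from the start. The median authors' fold was 12 for peaks that began at bases 45 to 143, 9.03 at 144 to 295, 8.81 at 296 to 590, 12.3 at 591 to 1290 and 23.8 from 1291 on. In these 5 position classes the transcripts had a median input level of 3.08, 3.44, 7.05, 9.60 and 20.4 CPM, which was higher with each step in position.

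The ratio of the whole transcript went the other way. With 1 peak on the transcript its median was 3.20, 2.90, 2.16, 1.75 and 0.80 from the first to the last class. The share called lower in the IP was 3.02%, 3.78%, 4.91%, 7.75% and 14.9%, next to 32.4% of all transcripts. Of the 1-peak transcripts in these classes, 150, 161, 72, 27 and 4 had 0 reads in the water inputs. Those passed the count filter only through their IP reads, so this order is not free of the filter. Across these 5386 transcripts the Spearman rho of position and ratio was -0.374, as a description. Among those at 10 to 100 CPM in the ammonium inputs the first 4 classes lay close together, at 1.28, 1.13, 1.27 and 1.26. The last lay below them, at 0.61. The SDs over the medians of the 3 IP libraries were 0.17 to 0.26, and in each IP library the last class lay below the other 4. The fitted medians of those 4 lay within this spread between libraries, which does not measure the spread between transcripts. All classes were read in the same libraries, so the spread is partly shared by them. The second class was the lowest of those 4 in IP replicates 1, 2 and 3, at 0.89, 1.28 and 1.27. The ammonium libraries gave 1.45, 1.28, 1.39, 1.34 and 0.75 for transcripts at 10 to 100 CPM in the water inputs. The part of transcript length in this was not tested.

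**Figure D5:**
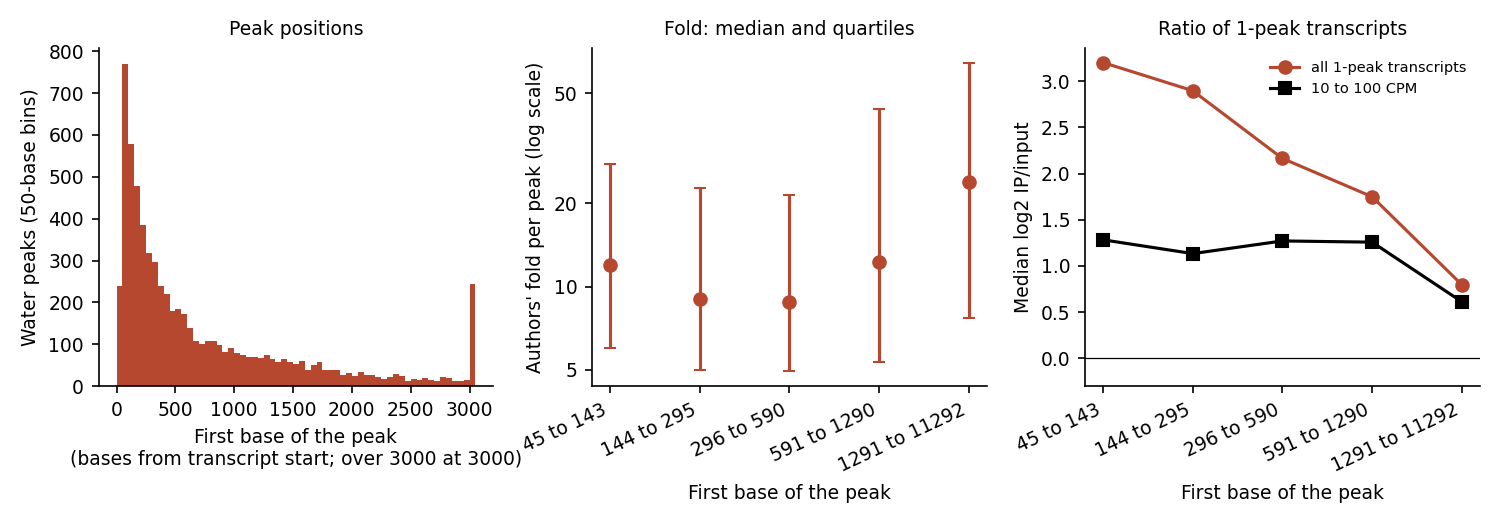
Position of the water peaks: the number of peaks by first base in bins of 50 bases (left), the authors' fold by position class with median and quartiles on a log axis (middle), and the median log2 IP/input of transcripts with 1 peak (right), for all of them and for those at 10 to 100 CPM in the ammonium inputs. Over all transcripts the median goes down along the classes to 0.80, and within 10 to 100 CPM the first 4 classes lie at 1.13 to 1.28 and the last at 0.61.

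Across the 5958 tested transcripts the fold of the strongest peak had a Spearman rho of -0.0737 with log2 IP/input, a value near 0 that was not held for input level, with which the fold of a peak had a rho of 0.441 over 6637 peaks. Single peaks on transcripts higher in the IP had a median width of 199 bases, a median first base of 300 and a median fold of 15.6 (n = 4025). On the 1002 transcripts called neither way the median fold was 10.6. On the 359 transcripts lower in the IP the medians were 149 bases, base 1033 and a fold of 8.57, and the input level was 37.3 CPM, against 5.01 CPM for the higher ones. Of these peaks on lower transcripts, 262 (73.0%) recurred in the ammonium list.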

How the data were processed

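The submitters' processing notes name bcl2fastq and BWA. For the read counter, versions, reference, multi-mapped reads and strand, the entry is: not given in the sources used here. The deposited table holds whole-number read counts per transcript ID, with no normalization, for 12 libraries. The deposited peak lists hold, per the file headers, a fold enrichment, read as a ratio between IP and input, and a score, which equals the p-value, for each peak; both are the authors' own values, from 1 list per treatment and so with no replicates. Columns follow the BED layout, so the first base is the listed start plus 1.

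Counts were fitted with edgeR 4.0.16 in R 4.3.3 on the 6 water libraries: TMM scaling, filterByExpr with its defaults (a minimum count of 10 and a total of 15), quasi-likelihood F tests with robust estimation, Benjamini-Hochberg over all transcripts. SE is the log2 ratio divided by the root of F. Medians by number of peaks were the same with transcripts at 0 in the inputs set to a floor of 3 counts over the group. DESeq2 1.42.0 was an alternative. Same-numbered IP and input libraries did not deviate together. The labels describe 3 independent runs, and p-values measure the spread between libraries.

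The members and lists were chosen with earlier results of these data known. Named transcripts were the 2 peak transcripts with the smallest p in each direction whose IP and input did not overlap, and named peaks the extremes of number, width and position. No genome or gene names were used here, so the planned marker lists were not tested and no sequence is shown. The classes within 10 to 100 CPM were chosen after seeing the data.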

Additional observations from a re-analysis of the deposited data

How the results depend on the processing

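Of the counts of called transcripts, DESeq2 gave 47602 higher and 48252 lower, with 71 transcripts given no adjusted p. A filter of 50 reads in 3 libraries gave 58044 calls, 29066 of them higher, from fewer transcripts tested, and an adjusted p under 0.01 gave 25688 lower and 239 lower peak transcripts. Scaling by library totals gave 755 lower peak transcripts and medians of 1.49 with a peak, -0.97 without and 0.83 at 100 CPM or more; the median without a peak was -0.022 with no filter. Omission of 1 library gave 77077 to 110826 calls (45408 to 50543 higher, 31669 to 60283 lower), 4061 to 4609 higher and 308 to 491 lower peak transcripts, medians of 1.89 to 2.06 with a peak, -0.87 to -0.21 without and 1.26 to 1.39 at 100 CPM or more, and read share differences of 15.4 to 17.0 points (18.0 to 18.3 in ammonium). The fewest calls and the most came without input replicate 1 and without IP replicate 1. With classes by the ammonium inputs the median at 100 CPM or more was -1.42, and for the narrowest single peaks at 10 to 100 CPM the median of 2.34 became -0.15 (-0.099 in the ammonium libraries); the cause was not tested. Peaks of fold 4 or more had a median width of 199 bases, 86.9% recurring and 373 transcripts with 2 or more peaks. The 50% of peaks with the smaller listed p had a width of 242.5, a first base of 474, 87.0% recurring and 236 such transcripts, and requiring 50% of the water peak left 79.9% recurring. The 4 named transcripts stayed called in all 14 alternatives each (largest adjusted p = 0.000956).

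With the replicate number as a block (a paired fit), edgeR called 41197 higher and 35836 lower. Same-numbered IP and input deviations correlated at 0.0428, -0.0023 and -0.0831 for numbers 1, 2 and 3. Of the 3 IP libraries, 1 correlated best with its own number. Values this near 0 from 3 numbers cannot tell whether IP and input of a number came from the same RNA. Listed peaks, their widths and their recurrence went with input level, and the part of depth in this was not tested.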

Other observations

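Some transcripts were read in 1 kind of library only. There were 15396 with reads in all 3 water IP libraries and 0 in the 3 water inputs, with a median of 47 IP reads in all, and 465 of them had a listed water peak. Of these 15396, 11102 had 0 reads in the ammonium inputs too. In the other direction 13868 transcripts had reads in all 3 water inputs and 0 in the water IP, with a median of 28 reads. Without IP reads these could not have a listed water peak. The 15396 took 0.803% of the IP reads and the 13868 took 0.356% of the input reads.

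Peak transcripts lay beside each other in ID number. A peak on an ID 1 above or below was listed for 994 of the 5968 peak transcripts (16.7%), against 4.56% of all IDs, and 47 had a peak of the same width there. Whether neighbouring IDs share sequence and reads was not tested, so counts of peak transcripts may include copies.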
